A study of Caenorhabditis elegans with 2 samples.

Results

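The regions described here are places on the 5 autosomes of *Caenorhabditis elegans* where peaks of EGL-43::GFP were called far from any protein-coding gene start. Binding of the protein at single regions was not tested, as there was no control library. Peaks from the 2 replicates were merged wherever they overlapped by 1 bp or more, and merged regions that both replicates contributed to were called shared. A shared region was counted as distal intergenic when the summit of its strongest peak lay outside every protein-coding gene body and more than 2000 bp from every protein-coding gene start in Ensembl WBcel235, the assembly also called ce11. This gave 1200 distal regions out of 5531 autosomal shared regions (21.7%, 95% Clopper-Pearson interval 20.6 to 22.8%) and 7259 shared regions in all. A region had to be called in both replicates and its summit came from the peak with the highest fold enrichment, but no level of enrichment beyond that of the calls was asked for. The label holds for protein-coding genes only: when the bodies and starts of all annotated genes were avoided in the same way, including noncoding genes and pseudogenes, 575 regions were left.

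Chromatin immunoprecipitation followed by sequencing was done on L3 larvae with GFP-tagged EGL-43, and an anti-GFP antibody was used. The sample labels give the background as wild-type and name no allele. The study describes the tag as endogenous and lists *zh136[egl-43::gfp]* among its edited alleles. It refers to the larvae used only as the *egl-43::gfp* strain, so the allele is inferred. Larvae of both replicates had the same labelled genotype, were hatched at a lower temperature and were then grown for 27 h at 25°C. There was no other condition and no untagged control in the files used here, so nothing is compared between groups of larvae. Chromatin came from whole larvae, while the tagged protein is found mainly in the somatic gonad and in a small set of head and tail neurons, so a region does not tell in which cells it was bound. The lists hold 8394 peaks in replicate 1 and 10925 peaks in replicate 2, and read totals are not among their values, so sequencing depth is unknown.

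EGL-43 is a zinc finger transcription factor related to mammalian EVI1, and it is known for its part in the development of the gonadal anchor cell, which invades the vulval epithelium, and in the migration of the HSN neurons. In the compact genome of *C. elegans* most known regulatory elements lie close to gene starts, and elements far from any start are usually described as candidate enhancers. The gene that a distal element acts on cannot be read from its position, so the flanking genes named below are neighbours and not assigned targets. Many *C. elegans* transcripts are also trans-spliced, which places the annotated start of a gene at the splice site and not at the true start of transcription.

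The sequences below are the plus strand of WBcel235 (RefSeq genome), 50 bp either side of the strongest summit, for the 6 distal regions with the highest enrichment on chromosomes II to V. They show what the sequence under the highest summits looks like. Capitals mark matches, on either strand, to the short words searched, which are listed with the word shares further on.
*sup-26*/*R10E4.3*, chrIII:4282283-4282383: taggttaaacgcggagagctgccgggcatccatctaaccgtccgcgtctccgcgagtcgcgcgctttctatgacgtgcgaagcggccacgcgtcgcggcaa
*pitp-1*/*cfap-20*, chrIII:3532160-3532260: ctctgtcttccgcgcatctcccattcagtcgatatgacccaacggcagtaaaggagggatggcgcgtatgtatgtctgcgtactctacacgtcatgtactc
*F42C5.9*/*ifo-1*, chrIV:7320029-7320129: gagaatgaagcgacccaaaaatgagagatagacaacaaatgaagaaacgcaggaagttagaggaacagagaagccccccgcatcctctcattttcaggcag
*sam-10*/*mrpl-20*, chrII:13335327-13335427: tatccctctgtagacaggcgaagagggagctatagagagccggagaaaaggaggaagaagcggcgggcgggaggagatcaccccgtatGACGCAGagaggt
*tig-3*/*rga-9*, chrII:15255894-15255994: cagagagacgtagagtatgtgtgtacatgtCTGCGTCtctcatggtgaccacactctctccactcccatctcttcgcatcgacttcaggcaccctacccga
*sipa-1*/*bir-1*, chrV:11641616-11641716: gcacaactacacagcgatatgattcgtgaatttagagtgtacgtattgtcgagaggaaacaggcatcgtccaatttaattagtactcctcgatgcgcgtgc
Capitals stand in 2 of the 6 windows, those between *sam-10* and *mrpl-20* and between *tig-3* and *rga-9*, and both mark the word GACGCAG or its reverse complement. The G+C content of the windows runs from 44.6% in the window between *sipa-1* and *bir-1* to 64.4% in that between *sup-26* and *R10E4.3*. The second set holds the distal regions upstream of *fos-1* and *egl-43*, genes at the centre of the study, in order of enrichment.
*cpg-4*/*fos-1*, chrV:6000568-6000668: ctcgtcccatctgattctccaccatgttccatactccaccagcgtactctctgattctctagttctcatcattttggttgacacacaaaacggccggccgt
*flad-1*/*egl-43*, chrII:9952769-9952869: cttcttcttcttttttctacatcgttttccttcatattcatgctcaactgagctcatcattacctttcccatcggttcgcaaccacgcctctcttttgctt
*flad-1*/*egl-43*, chrII:9949801-9949901: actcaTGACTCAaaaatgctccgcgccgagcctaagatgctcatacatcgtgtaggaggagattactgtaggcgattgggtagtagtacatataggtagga
*flad-1*/*egl-43*, chrII:9948882-9948982: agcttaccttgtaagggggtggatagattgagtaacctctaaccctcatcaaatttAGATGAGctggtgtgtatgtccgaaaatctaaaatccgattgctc
*flad-1*/*egl-43*, chrII:9948308-9948408: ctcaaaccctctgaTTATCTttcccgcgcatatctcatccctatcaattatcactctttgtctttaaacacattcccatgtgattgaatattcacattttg
Among the 5 windows upstream of *fos-1* and *egl-43*, 1 has TGACTCA, a site of AP-1 factors such as FOS-1. Of the same windows, 1 has AGATGAG, a site of the C-terminal zinc fingers of mammalian EVI1, and 1 has AGATAA on the minus strand, the core of GATA factor sites. Over all distal windows the shares were 2.75% for TGACTCA or TGAGTCA, 4.17% for AGATGAG and 4.25% for AGATAA. In the other autosomal shared regions they were 3.37%, 4.16% and 4.64%. The windows of distal regions beside *cki-1*, *nhr-67* and *hda-1*, which are not printed, hold none of these words.

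The fold enrichment of a region is the ratio of reads at the summit to the background estimated by the peak caller, and each region took its highest value in each replicate. In the distal regions it ran from 1.73 to 15.97 in replicate 1, with a median of 3.81 (interquartile range 3.14 to 5.23). In replicate 2 it ran from 1.67 to 16.2, with a median of 4.30 (interquartile range 3.38 to 5.94). The distal regions were thus for the most part moderately enriched, with a minority several fold above the median.

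The replicates ranked the distal regions alike. Spearman's rho between the fold enrichments was 0.80 and Pearson's r between their log2 values was 0.86 over 1200 regions, which are not independent samples and get no p-value. The log2 ratio of replicate 2 over replicate 1 had an SD of 0.31 around a median of 0.13, and 95% of the distal regions lay between -0.47 and 0.74. Replicate 2 was higher in 815 of them. The strongest summits of the replicates were a median of 28 bp apart in distal regions (interquartile range 12 to 57 bp) and 23 bp apart in the other autosomal shared regions. They lay within 100 bp of each other in 1068 distal regions (89.0%), against 91% of all autosomal shared regions. A q-value of at most 1e-05 in both replicates was reached by 1090 distal regions (90.8%), and by 91.3% of all autosomal shared regions. The plot of replicate 1 against replicate 2 shows this agreement for every distal region.

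**Figure D1:**
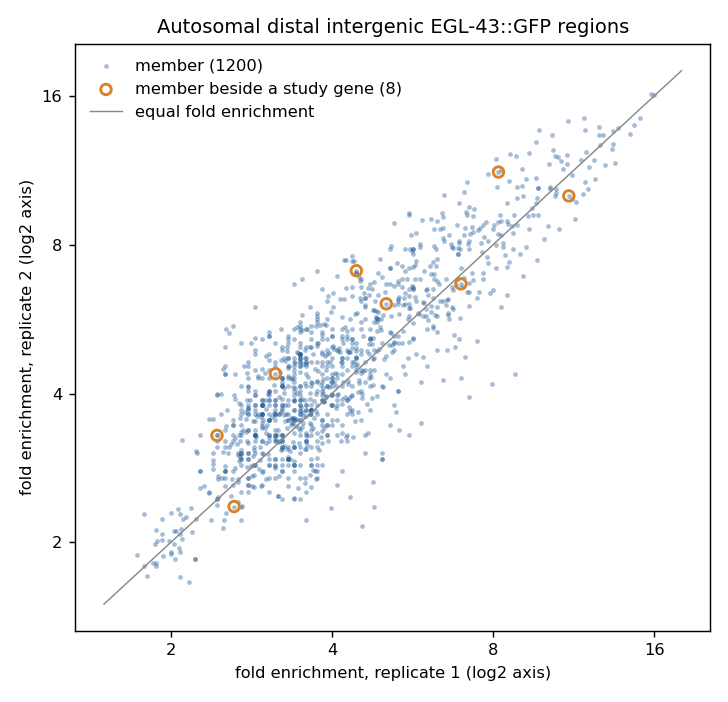
Fold enrichment of the 1200 distal regions in replicate 1 (x axis, log2 scale) and replicate 2 (y axis, log2 scale), 1 point per region. The line marks equal values and open circles the 8 regions beside one of the 17 genes listed from the study. Points follow the line with an SD of 0.31 in the log2 ratio, and more of them (815) lie above it than below it.

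The largest differences between replicates were about 2-fold and occurred in weakly or moderately enriched regions. The region between *ttll-4* and *ZK1128.7* had fold enrichments of 2.54 and 5.401 in replicates 1 and 2, and that between *F54C9.11* and *aptf-4*, a gene for an AP-2 family factor, had 2.61 in replicate 1 and 5.49 in replicate 2. In the other direction, the region between *B0507.1* and *sup-37* had 4.54 in replicate 1 and 2.16 in replicate 2. The region between *dnj-25* and *pha-4*, which encodes the FoxA factor of the pharynx, had 4.79 in replicate 1 and 2.36 in replicate 2. Besides the shared regions, 144 distal peaks were found in replicate 1 only (median fold enrichment 2.87) and 522 in replicate 2 only (median 2.96), values below the lower quartiles of the shared ones.

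Median fold enrichments in replicates 1 and 2 were 3.81 and 4.30 in distal regions, 4.09 and 4.52 in regions within 500 bp upstream of a gene start, and 4.18 and 4.81 in regions 500 to 2000 bp upstream. They were 3.92 and 4.47 in introns, 3.51 and 3.97 in exons, and 3.76 and 4.30 on the X chromosome. The distal medians thus lay above those of exons and below those of promoters, upstream regions and introns in both replicates, and the interquartile ranges of all classes overlap in the plot of fold enrichment by class. A fold enrichment of at least 5 in both replicates was found in 295 distal regions (24.6%, interval 22.2 to 27.1%) and in 1208 of the 4331 other autosomal shared regions (27.9%, interval 26.6 to 29.3%), with 27.2% over all autosomal shared regions. By class this share was 29.4% at promoters, 33.4% in upstream regions, 26.2% in introns and 18.3% in exons. At the limit of 10 in both replicates the shares were 3.50% of distal regions (42, interval 2.53 to 4.70%) and 3.002% of the others (130, interval 2.51 to 3.55%), against 3.11% over all.

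**Figure D2:**
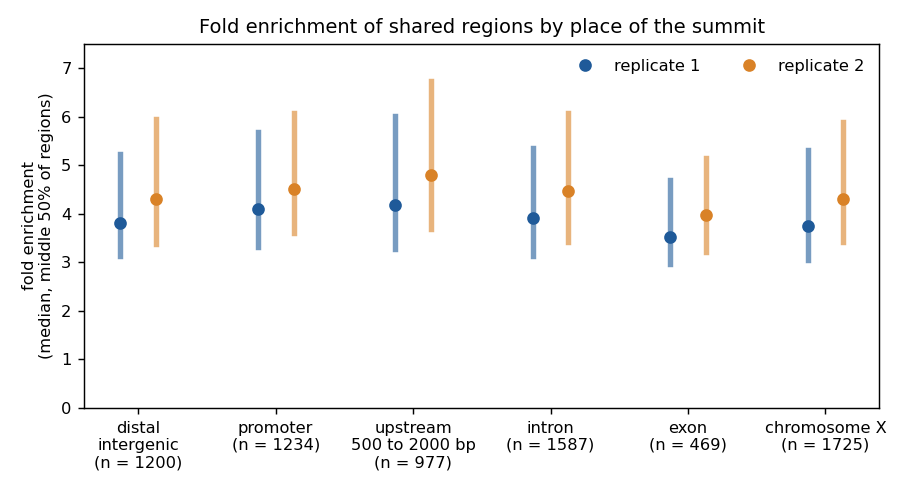
Median fold enrichment (points) and the middle 50% of regions (bars) in replicate 1 and replicate 2, for distal intergenic regions and 5 other classes of shared region. The distal medians of 3.81 and 4.30 lie between those of exons (3.51 and 3.97) and of upstream regions (4.18 and 4.81), and all bars overlap.

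The median length of distal regions was 389 bp, near the 381 bp of upstream regions, 377 bp of introns and 385 bp on the X chromosome, with 310 bp at promoters and 327 bp in exons. Distal regions held more repeated sequence than the other autosomal ones. In 128 distal regions (10.7%) at least 50% of the 36-base words occurred again elsewhere in the genome, which was the case in 157 of the others (3.63%). Such words start at 16.5% of the positions of the eligible distal sequence, and 1007 distal regions held none. The 128 repeated regions had lower medians, 3.04 in replicate 1 and 3.10 in replicate 2, and reached 9.65 and 10.5. Reads of repeats may be counted at a copy they did not come from, so positions in these regions are uncertain.

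In a ranking of autosomal shared regions by whichever replicate gave the smaller fold enrichment, distal regions took 21 of the first 100 places and 2 of the first 10, and they make up 21.7% of all the regions ranked, with rank 7 as the highest. That highest one, chrIII:4281690-4282824, lies 2109 bp from the start of *sup-26*, a gene for an RNA-binding protein, with *R10E4.3* on its other side, and had fold enrichments of 15.97 and 16.1 in replicates 1 and 2. The next, chrIII:3531978-3532595 between *pitp-1*, a phosphatidylinositol transfer protein gene, and *cfap-20*, had 15.8 in replicate 1 and 16.2 in replicate 2. The replicates were close in both.

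The region between *F42C5.9* and *ifo-1*, which encodes an organizer of intestinal intermediate filaments, had 15.02 in replicate 1 and 14.5 in replicate 2, and 2 noncoding genes lie in it. The region between *sam-10* and *mrpl-20*, a mitochondrial ribosomal protein gene, had 14.7 and 13.9, and that between *tig-3* and *rga-9* had 13.7 and 13.8 in replicates 1 and 2. The region between *sipa-1* and *bir-1*, the gene for a survivin homologue, had 13.4 and 13.6, and its summit lies in the long noncoding RNA gene *linc-153*. Next in rank, *rho-1*, a small GTPase gene, and *zip-7*, a bZIP factor gene, flank a region with 14.4 in replicate 1 and 13.4 in replicate 2.

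The region 2232 bp upstream of *unc-31*, which encodes a protein of dense core vesicle release, had fold enrichments of 12.6 and 13.8 in replicates 1 and 2, with *ZK897.10* on its other side. The region between *his-70* and *unc-79*, a subunit gene of the NALCN sodium leak channel complex, had 12.4 and 11.9, and that 2346 bp upstream of *rimb-1*, a synaptic RIM-binding protein gene, had 11.8 and 14.4, the widest gap between replicates among the first 20. The other side of that region is *Y39A3CL.3*. These 3 regions carry no annotated noncoding gene at the summit.

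Of the remaining places among the first 20, regions between *usp-5* and *trak-1* (12.8 in replicate 1 and 13.3 in replicate 2), *tcc-1* and *csn-1* (13.4 and 12.8), *W09D10.4* and *tat-3* (12.7 and 12.7), *cox-5B* and *hrdl-1* (12.6 and 13.3), and *pmr-1* and *W05B5.1* (13.3 and 12.5) had values in a narrow range. Of these neighbours, *csn-1* encodes a COP9 signalosome subunit, *cox-5B* a cytochrome oxidase subunit and *pmr-1* a Golgi calcium pump. The region between *cutl-22* and *cmd-1*, the calmodulin gene, had 11.9 and 12.3 and lies over *linc-128*. The region between *aakg-1*, an AMP kinase subunit gene, and *gldi-8* had 11.9 and 13.7, and lies 8294 bp from the start of *aakg-1*. The region between *F38A6.4* and *hif-1*, the hypoxia-inducible factor gene, had 13.5 and 11.7, and its summit is 2047 bp from the start of *hif-1*.

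The last places among the first 20 were taken by regions at small RNA genes. One lies at the left end of chromosome I over the snoRNA gene *Y74C9A.6*, with *homt-1* to its right (11.7 in replicate 1 and 11.9 in replicate 2). Another, chrIV:14032462-14035009 between *irld-55* and *Y37A1B.7*, spans the microRNA gene *mir-52* and 7 other noncoding genes and had 12.97 in replicate 1 and 11.6 in replicate 2. The plot of the 20 regions gives both values of each. The fold enrichments of all 20 lay between 11.6 and 16.2, and 19 of them were also among the first 20 by the mean of the replicates.

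**Figure D3:**
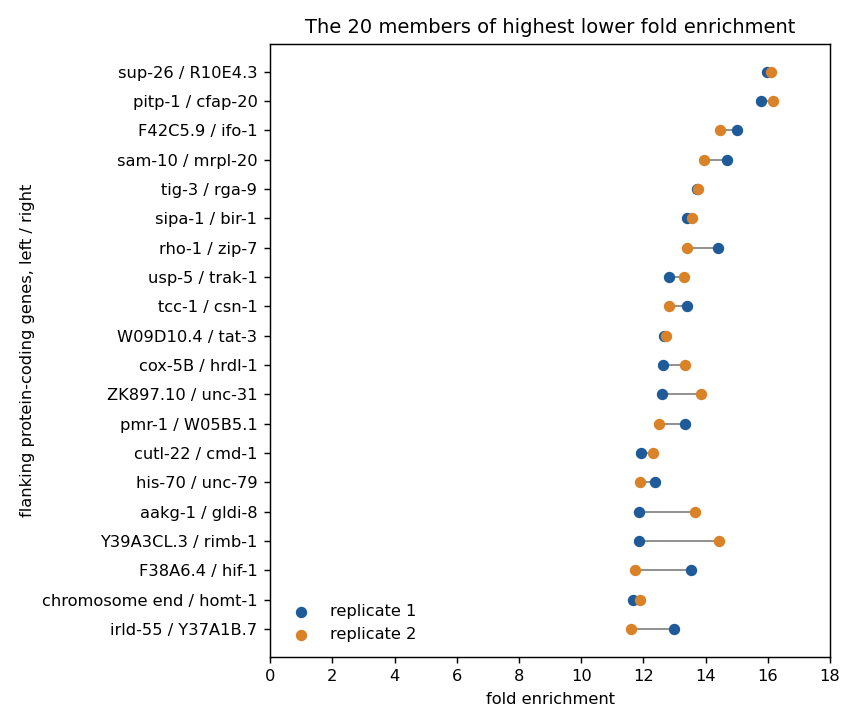
Fold enrichment (x axis) in replicate 1 and replicate 2 of the 20 distal regions with the highest lower value, named on the y axis by the protein-coding genes to their left and right. The values run from 11.6 to 16.2, and the gap between replicates is widest for the region between *Y39A3CL.3* and *rimb-1* (11.8 and 14.4).

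A list of 17 genes connected with anchor cell invasion was drawn up from the text of the study, and 12 of them border a gap with eligible distal sequence. Of these, 5 were direct neighbours of a distal region. The region 2983 bp upstream of *fos-1*, the gene of an AP-1 factor required for invasion, was the strongest of the 8 such regions, with fold enrichments of 11.1 and 10.04 in replicates 1 and 2. It ranked 42 among the distal regions, and *cpg-4* is its other neighbour.

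Between *flad-1* and *egl-43* itself 4 distal regions lay upstream of *egl-43*. The one nearest to the gene, 2366 bp from its start, had fold enrichments of 8.19 and 11.2 in replicates 1 and 2. The next, 5334 bp away, had 6.97 and 6.67, and the one 6253 bp away had 5.05 in replicate 1 and 6.08 in replicate 2. The farthest, 6827 bp away and 1237 bp beyond the end of *flad-1*, had 3.14 and 4.39. In each replicate the values were thus ordered by closeness to *egl-43*, over 4 regions.

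The remaining 3 of these regions were weaker. Between *cki-1*, a CDK inhibitor gene, and its paralogue *cki-2*, a region 2359 bp beyond the end of *cki-1* and 2035 bp upstream of *cki-2* had 4.44 in replicate 1 and 7.09 in replicate 2, a log2 ratio of 0.67. The region 2446 bp upstream of *nhr-67*, the tailless-type nuclear receptor gene, had 2.44 and 3.29, with *C08F8.6* to its left, and that 160 bp beyond the end of *hda-1*, a histone deacetylase gene, had 2.63 and 2.36, with *kcnl-4* to its right. The last 2 rank 1128 and 1142 among the 1200 distal regions. The study observed no specific binding at *nhr-67*, from peaks that were filtered further than the lists used here. It assigned peaks to genes by mapped promoters and enhancers, gene bodies or the 500 bp upstream. Its statement and the region given here thus rest on unlike measures. In all, 5 of the 17 gaps with distal sequence beside these genes held a distal region (29.4%, interval 10.3 to 56.0%), against 17.6% of all such gaps.

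The eligible distal sequence, all positions where a summit would have counted as distal, makes up 12.8 Mb or 15.5% of the autosomes. It held 9.35 distal regions per 100 kb. The rest of the autosomal sequence, which pools gene bodies with sequence near gene starts, held 6.21 other shared regions per 100 kb. Densities of the single classes were not computed, so these values do not rank distal sequence against promoters. By chromosome there were 230 on I, 244 on II, 211 on III, 263 on IV and 252 on V, and per 100 kb of eligible sequence 12.2, 10.9, 10.9, 7.28 and 7.94 in that order. Chromosomes IV and V thus had more eligible sequence and a lower density.

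Position along the chromosome went with a larger difference in density. *C. elegans* autosomes have gene-dense centres and arms rich in repeats and fast-evolving gene families. Each autosome was cut at 1/3 and 2/3 of its length into a centre and 2 arms. The centres, with 29.0% of the eligible sequence, held 530 distal regions or 14.2 per 100 kb, and the arms held 670 or 7.36 per 100 kb. Repeated 36-base words start at 13.8% of the eligible positions in the centres and at 17.6% in the arms. Without the 128 mostly repeated regions the densities were 13.1 per 100 kb in the centres and 6.41 per 100 kb in the arms. The medians of fold enrichment were close, 3.75 and 4.30 in the centres and 3.84 and 4.30 in the arms in replicates 1 and 2.

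Density also differed with the orientation of the flanking genes. Gaps between divergent genes, whose starts face each other, held 399 distal regions or 11.2 per 100 kb, and gaps between genes in tandem held 691 or 10.1 per 100 kb. Gaps between convergent genes, whose ends face each other, held 100 or 4.15 per 100 kb, with 8.33% of the distal regions (interval 6.83 to 10.04%) in 18.8% of the eligible sequence. Regions in convergent gaps had the lowest medians of the 4 kinds of gap, counting chromosome ends (10 regions), with 3.52 in replicate 1 and 3.61 in replicate 2, against 3.83 and 4.30 in divergent gaps. The first 500 bp beyond gene ends held 70 distal regions, 5.83% (interval 4.58 to 7.31%) in 8.97% of the eligible sequence.

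The nearest protein-coding start was a median of 3614 bp from the summit (interquartile range 2650 to 5249 bp), and 3782 bp from the eligible sequence as a whole. Density was 10.04 per 100 kb between 2000 and 3000 bp from a start and 10.2 between 4000 and 5000 bp, then 8.06 between 7500 and 10000 bp. Beyond 10000 bp it was 4.96, with 40 distal regions and the farthest at 28683 bp. Near the limit itself, the 3 distal regions just inside were 2002 bp (*gei-8*/*rpl-21*, fold enrichment 3.69 in replicate 1 and 4.80 in replicate 2), 2003 bp (*W06H8.6*/*K08B12.3*, 6.26 and 7.26) and 2004 bp (*bicd-1*/*C43G2.3*, 7.99 and 6.49) from a start. Just outside were shared regions at 2000 bp (*fbxa-28*/*fbxa-75*, 4.70 and 4.57), 1994 bp (*pacs-1*/*grd-6*, 6.88 and 9.33) and 1993 bp (*glr-4*/*cki-1*, 4.88 and 5.82). Values on the 2 sides of the limit were of like size.

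Distal regions were spread over 687 of the 3900 gaps between protein-coding genes that hold eligible sequence, which is 17.6% (interval 16.4 to 18.8%). Among these, 261 gaps held at least 2 distal regions, with 774 of the 1200 between them, and 31 gaps held at least 5. The share of gaps with a distal region was 2.73% where the gap had up to 1 kb of eligible sequence, 23.5% from 2 to 5 kb, 35.6% from 5 to 10 kb and 48.4% from 10 to 20 kb. Of the 38 gaps with over 20 kb, 19 held one (50%, interval 33.4 to 66.6%). Per 100 kb of eligible sequence, gaps from 2 to 10 kb were the fullest, with 10.3 from 2 to 5 kb and 10.2 from 5 to 10 kb, and gaps over 20 kb had 4.89.

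The most distal regions were held by 2 gaps with 8 and 4 gaps with 7. The gap of 27.0 kb between *T06A4.1* and *zfh-2*, a gene for a zinc finger homeodomain factor, held 8 distal regions between 1.38 and 22.1 kb from the end of *T06A4.1*, with fold enrichments from 2.87 to 5.14 in replicate 1 and from 3.54 to 7.85 in replicate 2. The highest of them, at 5.14 and 7.85, is the one nearest to *zfh-2*. The gap of 14.2 kb between *Y59H11AM.1* and *catp-7*, a cation pump gene, also held 8, but these were weak (1.87 to 3.58 in replicate 1 and 1.98 to 3.34 in replicate 2), and a median of 93.2% of their 36-base words occur again in the genome. This is repeated sequence, where the number of separate bound places is uncertain.

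The gap of 18.6 kb between *snt-1*, the synaptotagmin gene, and *egl-27*, which encodes an MTA1-like component of NuRD-type chromatin complexes, held 7 distal regions. Their values were lowest near *snt-1* and highest past the middle of the gap: 3.14 and 3.61 in replicates 1 and 2 at 4.08 kb from the end of *snt-1*, 6.53 and 6.04 at 7.68 kb, and 9.47 and 9.51 at 11.1 kb. The last, at 15.5 kb, had 6.19 and 8.60. These included 2 of the 5 longest autosomal distal regions, of 4034 bp and 4585 bp, neither with a repeated 36-base word. The gap between *shn-1*, the Shank gene, and *C05D12.7* held 7 with fold enrichments from 2.61 to 4.70 in replicate 1 and from 2.62 to 3.71 in replicate 2. The gap between *T28C12.6* and *bcl-11*, a zinc finger factor gene, held 7 with 2.44 to 4.80 and 2.45 to 4.90, and the gap between *D1046.4* and *tpra-1* held 7 with 2.61 to 5.401 and 2.95 to 7.26. The maps of 3 gaps show how regions of unlike strength share 1 gap; they were chosen for display after the values were seen.

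**Figure D4:**
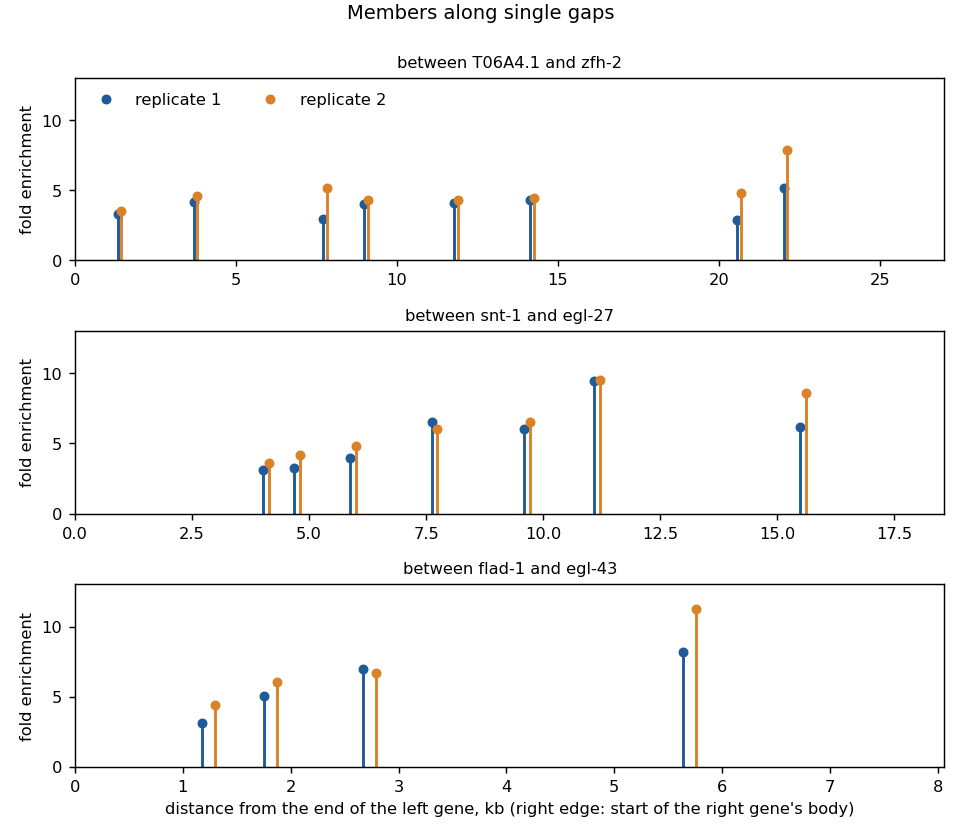
Fold enrichment (y axis) of distal regions in replicate 1 and replicate 2 along 3 gaps between protein-coding genes, by distance in kb from the end of the left gene (x axis, which ends at the body of the right gene). The 8 regions before *zfh-2* stay between 2.87 and 7.85, the 7 before *egl-27* are highest at 11.1 kb (9.47 and 9.51), and the 4 before *egl-43* are highest at 5.70 kb (8.19 and 11.2).

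Neighbours were counted for 10 lists of genes, over the gaps with eligible sequence on either side of a list's genes. Distal regions were found in 15 of 43 gaps beside guidance and adhesion genes (34.9%, interval 21.0 to 50.9%), 18 of 63 beside homeobox genes (28.6%, interval 17.9 to 41.3%), 22 of 83 beside other developmental transcription factor genes (26.5%, interval 17.4 to 37.3%) and 5 of 10 beside Wnt ligand and receptor genes (50%, interval 18.7 to 81.3%). The share over all gaps was 17.6%. The gaps of guidance and adhesion genes are long, with a median of 4.31 kb of eligible sequence against 1.78 kb over all gaps. The median was 3.58 kb for homeobox genes, 2.25 kb for other developmental factor genes and 1.71 kb for Wnt genes. Per 100 kb of eligible sequence, guidance and adhesion gaps held 12.9 distal regions and homeobox gaps 12.3, against 9.35 over all. Other developmental factor gaps held 12.4, and Wnt gaps 17.8 from only 6 regions. The part of gap length in these shares was not tested.

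At the other end, distal regions were found in 28 of 482 gaps beside chemoreceptor genes (5.81%, interval 3.89 to 8.29%), a large family that sits mostly on chromosome arms, and in 5 of 67 beside neuropeptide genes (7.46%, interval 2.47 to 16.6%). Collagen genes had 2 of 34 gaps (5.88%, interval 0.72 to 19.7%) and bHLH factor genes 2 of 29 (6.90%, interval 0.85 to 22.8%). Nuclear hormone receptor genes had 23 of 137 (16.8%, interval 11.0 to 24.1%), close to the share over all gaps. Per 100 kb of eligible sequence, the density was 4.09 beside chemoreceptor genes, 2.85 beside neuropeptide genes and 7.17 beside nuclear hormone receptor genes. It was 2.77 beside bHLH factor genes and 1.40 beside collagen genes. The same gap can count for 2 lists, and intervals cover counting error only.

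**Figure D5:**
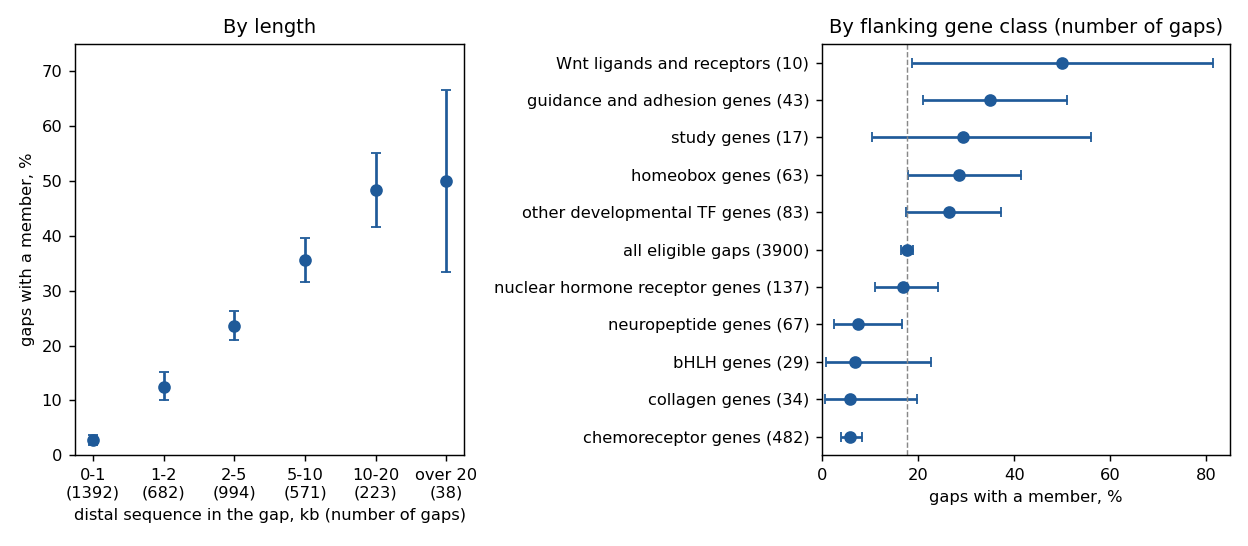
Left, percent of gaps with a distal region (points, with 95% Clopper-Pearson intervals) by the length of distal sequence in the gap, which climbs to 48.4% at 10 to 20 kb. Right, the same percent by class of flanking gene, with the number of gaps and a dashed line at the 17.6% of all gaps; guidance and adhesion genes (34.9%) lie above it and chemoreceptor genes (5.81%) below it.

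Single regions of these lists show the range of enrichment. Beside homeobox genes, the highest were those between *Y49A3A.4* and *unc-39*, a Six-type factor gene, with 11.9 in replicate 1 and 10.7 in replicate 2 at 4619 bp from its start and 11.4 and 9.77 at 6349 bp, and the one 2183 bp upstream of *ceh-48* and 295 bp beyond *C17H12.10*, with 10.2 and 10.5. Beside other developmental factors, a region 3568 bp upstream of *klu-1* had 8.14 and 10.5 (left neighbour *ZK909.6*), one between *lsl-1* and *ztf-11* had 6.70 and 7.93, and one between *cutl-2* and *mab-3*, a DM domain factor gene, had 6.27 and 6.75. These were all among the 300 highest distal regions, whose lower fold enrichment is 4.94 or more.

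Beside nuclear hormone receptor genes, regions between *nhr-20* and *F43C1.7* (9.73 in replicate 1 and 9.18 in replicate 2), *srw-60* and *nhr-88* (9.06 and 11.4) and *K01H12.4* and *nhr-138* (7.60 and 8.06) were highest. The bHLH list had only 4 regions in all, led by the one at *hif-1* given above and followed by 2 between *slc-17.7* and *hlh-10* (8.18 and 8.40, and 4.44 and 4.87). Beside guidance and adhesion genes, regions between *F25F2.1* and *cdh-4*, a Fat-type cadherin gene, had 6.88 and 7.68 and, nearer to *cdh-4*, 6.18 and 6.24. One between *ina-1*, an integrin alpha chain gene, and *tax-4* had 8.51 and 6.33.

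Regions beside Wnt genes had medians of 3.66 in replicate 1 and 4.01 in replicate 2, against 3.81 and 4.30 over all distal regions. The highest 3 were between *ipla-7* and the Wnt gene *cwn-2* (4.62 in replicate 1 and 5.99 in replicate 2), between *F32B5.1* and *lin-17*, a Frizzled receptor gene (4.01 and 4.98), and between *cam-1*, a Ror receptor gene, and *csa-1* (3.66 and 3.71). A fold enrichment of at least 5 in both replicates was found in 0 of the 6 regions of that list, and in 24.6% of all distal regions. Beside neuropeptide genes the highest were between *nhr-34* and *ins-8* (5.65 and 7.76), *cct-4* and *nlp-55* (5.15 and 5.34, in sequence of 89.4% repeated 36-base words) and *T24F1.4* and *nlp-51* (4.53 and 6.84). The 2 regions beside collagen genes were between *ccb-1* and *col-50* (5.49 and 7.85) and between *col-160* and *F57B1.5* (3.01 and 4.76). Beside chemoreceptor genes, the highest were between *str-170* and *str-166* (9.28 and 9.16, over the snoRNA gene *T08B6.64*), the one at *nhr-88* given above, and between *srh-16* and *frm-7* (8.87 and 9.96).

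Noncoding genes and pseudogenes lie in 15.9% of the eligible sequence, and 130 of the 1200 summits (10.8%, interval 9.13 to 12.7%) lay in one. The kinds differed widely. Genes annotated as ncRNA take 1.45% of the eligible sequence and held 99 summits (8.25%, interval 6.76 to 9.95%), and long intergenic noncoding RNA genes take 0.84% and held 17 (1.42%, interval 0.83 to 2.26%). Pseudogenes take 12.8% of the eligible sequence and held 10 summits (0.83%, interval 0.40 to 1.53%). Repeated 36-base words start at 19.7% of the eligible positions inside pseudogenes. Genes of piRNAs, which take 0.80%, held 0 of 1200 summits (interval 0 to 0.31%).

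MicroRNA genes were touched by 8 distal regions of unlike strength. These genes take 0.041% of the eligible sequence and held 1 summit (0.083%). Regions that touch them were not counted in the other classes. In the gap left of *unc-39*, one region covers *mir-241* (11.4 in replicate 1 and 9.77 in replicate 2) and another covers *mir-48* (4.32 and 5.66). Both microRNAs belong to the let-7 family, which times larval cell fates. The summits lie upstream of the annotated starts in both replicates, by 442 bp in replicate 1 and 159 bp in replicate 2 at *mir-241* and by 51 bp and 306 bp at *mir-48*. At *mir-52* the replicates were closer, with summits 287 bp and 299 bp upstream. In a region between *alh-3* and *hrg-5*, which had 4.33 and 3.68, they lie 58 bp and 143 bp upstream of *mir-51*, of the same family as *mir-52*. Of the 8 regions that touch a microRNA gene, only 1 has its summit inside the gene, that of *mir-8209* between *jph-1* and *T22C1.8* (11.0 and 12.2). The others touch *mir-2211* (4.65 in replicate 1 and 4.87 in replicate 2), *mir-228* (3.14 and 3.28) and *mir-238* (2.76 and 3.56).

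Tandem arrays of RNA genes accounted for the 2 longest distal regions. The longest, 11176 bp, lies between *F31C3.6* and the right end of chromosome I over the ribosomal RNA genes *rrn-1.1*, *rrn-2.1* and *rrn-3.1*, with fold enrichments of 7.07 and 6.84 in replicates 1 and 2. The second, 6698 bp between *ZK218.11* and *F40D4.17* on chromosome V, lies over copies of the 5S ribosomal RNA and the spliced leader gene *sls-1*, with 6.29 and 5.98. In these regions 67.7% and 95.9% of the 36-base words occur again in the genome. The replicates were close in both, but the enrichment of an array cannot be assigned to single copies. Whether it reflects binding of EGL-43 was not tested, as there was no control library and the lists precede the removal of blacklisted regions.

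The sequence at distal summits differed from its surroundings. Windows of 50 bp either side of the summits had a mean G+C content of 44.3%, against 33.6% in windows of the same length centred 500 bp to either side and 34.1% in 116829 windows of eligible sequence without a peak. In the other autosomal shared regions the mean was 45.9%. Within the distal regions it was 47.0% in the 300 regions with the highest lower fold enrichment and 42.4% in the 300 with the lowest. G+C content affects the recovery of fragments in sequencing, and its part in these values was not tested.

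The windows were searched on both strands for AGATGAG and ACAAGATA, sites of the mammalian EVI1 zinc fingers, TGACTCA with TGAGTCA for AP-1, AGATAA for GATA factors, GAGAGAGA, and CAGGTG with CAGCTG, which are E-boxes. GACGCAG was added after the shares of all 8192 words of 7 bases had been seen in distal windows and flanks. Its share in the distal regions and its excess over the flanks therefore describe that choice. The ends of different words can share bases, as CAG does at the end of GACGCAG and the start of CAGGTG. A match is only a run of letters and does not show binding.

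GACGCAG stood in 142 of 1200 distal windows (11.8%, interval 10.1 to 13.8%), against 13.3% of all autosomal shared windows, 0.92% of the flanks and 0.63% of eligible windows without a peak. GAGAGAGA stood in 124 distal windows (10.3%, interval 8.67 to 12.2%), against 8.75% of all autosomal shared windows, 0.71% of the flanks and 0.62% of eligible windows without a peak. In 23 distal windows both were present, and at least 1 of them in 243 (20.25%). By class, GACGCAG stood in 16.9% of promoter, 15.6% of upstream, 11.2% of intron and 10.2% of exon windows, and 6.03% on the X chromosome. GAGAGAGA stood in 5.35% of promoter, 10.3% of upstream, 10.5% of intron and 5.33% of exon windows, and 3.71% on the X chromosome. The GAGAGAGA share of distal windows was thus close to those of upstream and intron windows. Both words were rarer in the sequence around the distal summits than at them, but for GACGCAG this contrast was part of the choice of the word.

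Of the other words, AGATGAG stood in 50 distal windows (4.17%, interval 3.11 to 5.46%), 4.16% of the other autosomal shared windows and 0.84% of the flanks. TGACTCA or TGAGTCA stood in 33 (2.75%, interval 1.90 to 3.84%), against 3.37% of the others and 1.09% of the flanks. CAGGTG or CAGCTG stood in 102 (8.50%, interval 6.98 to 10.2%), against 7.80% of the others and 3.59% of the flanks. AGATAA stood in 51 (4.25%, interval 3.18 to 5.55%), against 4.64% of the others and 5.52% of the flanks, and ACAAGATA in 1, against 9 of 2393 flanks. The AGATGAG shares of distal and other autosomal windows were close, and the AGATAA share did not exceed that of the flanks.

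The shares of the first words followed enrichment. In 4 groups of 300 distal regions, from the highest to the lowest lower fold enrichment, GACGCAG stood in 22.0%, 12.3%, 8.67% and 4.33% of windows, AGATGAG in 8.0%, 4.33%, 3.33% and 1.0%, and GAGAGAGA in 17%, 9.0%, 8.0% and 7.33%. In the same groups, CAGGTG or CAGCTG stood in 9.67%, 7.33%, 8.0% and 9.0%. TGACTCA or TGAGTCA stood in 2.33%, 4.67%, 2.0% and 2.0%, and AGATAA in 4.0%, 2.67%, 7.67% and 2.67%. Distal regions with GACGCAG had median fold enrichments of 5.27 in replicate 1 and 5.47 in replicate 2, and those without it 3.68 and 4.198. For AGATGAG the medians were 4.92 and 5.42 with the word and 3.75 and 4.30 without it. G+C content was also lower in the lowest group, as given above, and its part in the word shares was not tested.

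Seen from the words, a minority of the copies in distal sequence lay in a distal region. The distal regions cover 576 kb or 4.49% of the eligible sequence, and held 261 of its 1146 copies of GACGCAG (22.8%, interval 20.4 to 25.3%), 956 of 3296 of GAGAGAGA (29.0%, interval 27.5 to 30.6%) and 166 of 1586 of AGATGAG (10.5%, interval 9.003 to 12.1%). For AGATAA it was 276 of 8363 (3.30%, interval 2.93 to 3.71%). Overlapping matches were counted separately, so a long GA run gives several copies of GAGAGAGA. Its interval does not allow for this, and its share is not on the same footing as those of the other words. Most copies of each of these words in distal sequence therefore lay outside the distal regions.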

How the data were processed

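EGL-43::GFP ChIP-seq of L3 larvae was analysed from 2 deposited peak lists, 1 per biological replicate. The authors aligned reads to ce11 with BWA and called the peaks of each replicate with MACS2, with no control library named in the sources used here. The deposited fold enrichment is a ratio of reads at the summit to the estimated background. The lists also hold the deposited −log10 p-value and −log10 q-value of each peak, a deposited score derived from the q-value, which was not used, and the summit as a distance from the peak start. The highest q-values were 0.00395 in replicate 1 and 0.00688 in replicate 2. No read totals are given, so the depth behind a value is unknown, and the spread between replicates stands in for its precision. The lists precede the later filtering that the authors describe, including the removal of blacklisted regions.

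Peaks were merged at an overlap of 1 bp, and the annotation was Ensembl release 115 for WBcel235 (46926 genes, 19985 protein-coding). Positions are counted from 1. Exons, bodies and starts were those of the annotation, with 1 start per gene. Gaps are stretches between neighbouring protein-coding gene bodies. Intervals of shares are 95% Clopper-Pearson intervals and cover only counting error. No test was run, because there was 1 condition and regions are not replicates. A region's repeat content is the share of its 36-base words found again in the genome, on either strand. On simulated data, merging, classification and word counts were tested. Python 3.11.15, numpy 2.4.6, scipy 1.17.1, pandas 2.3.3 and matplotlib 3.10.9 were used.

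The regions and lists were chosen with earlier results of these data known. Named genes were those flanking the 20 distal regions with the highest lower fold enrichment, the 17 genes listed from the study, the 5 gaps with the most regions (6 with ties), the 3 highest regions beside each gene list, the 2 largest replicate ratios in each direction, and the 3 regions on each side of the 2000 bp limit. Alternatives were other overlaps, summits, q-values, distances, gene starts and annotations, each replicate alone, other word windows and rankings, and, added after seeing the data, the removal of mostly repeated regions and the word GACGCAG.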

Additional observations from a re-analysis of the deposited data

How the results depend on the processing

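The distance limit and the annotation set the number of distal regions most. There were 1817 (32.9% of autosomal shared regions) at 1000 bp, 326 (5.89%) at 5000 bp and 575 (10.4%) when all annotated genes were avoided, where by construction 0% of summits lay in a noncoding gene. The share of gaps with a distal region was 15.2%, 20.2% and 14.2% under these settings in that order. Within 500 bp beyond gene ends the share was 8.04% at 1000 bp and 2.76% at 5000 bp, and the arms held 62.6% at 5000 bp. With 1 replicate alone the number was 1392 to 1750 and the share of gaps with a distal region 18.9 to 21.8%. Without the mostly repeated regions, an alternative chosen after seeing the data, distal regions were 20.4% of the autosomal shared regions and stood in 16.03% of gaps. Word shares follow the window length: at 25 and 100 bp either side, AGATGAG stood in 2.25% and 6.61%, TGACTCA or TGAGTCA in 0.92% and 4.68%, AGATAA in 2.67% and 8.28%, GAGAGAGA in 5.25% and 15.5%, CAGGTG or CAGCTG in 4.25% and 15.4%, and GACGCAG in 7.17% and 15.8%. Median fold enrichments ran from 3.60 to 3.92 in replicate 1 and from 3.71 to 4.55 in replicate 2 over the alternatives. Other counts moved by less than 1.5 times, and other shares and class ratios stayed inside the interval of the value reported. Ranking by q-value kept 14 of the first 20 regions. No paired analysis was possible because there was only 1 group of larvae. Depth is unknown, there is no untagged control, and 2 replicates of whole larvae do not tell cells apart.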
